A study of Mus musculus with 6 samples.

Results

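The blood vessels and macrophages of a dorsal root ganglion are taken apart together with its sensory neurons, and their RNA can be read in the neurons' libraries after a cell sort. The genes described here are 35 symbols named for cells other than neurons: 15 endothelial genes, 6 genes of mural cells (the pericytes and smooth muscle cells around vessels), 13 macrophage genes and 1 T cell gene. They are a list of symbols chosen with earlier results of these data known, and all 35 were found among the 41388 genes listed for each library. The 6 libraries, lettered A, B and C within each sex, were made from female (3) and male (3) C57BL/6 mouse embryos on embryonic day 18.5. All embryos carried RetFloxedEGFP with a Cre recombinase named NaV1.8Cre, as the sample titles have it for all 6 libraries (the genotype field of male C names RetFloxedEGFP alone). EGFP-positive cells were sorted from ganglia of lower thoracic to the first sacral levels. Cre from Scn10a, which encodes the sodium channel Nav1.8, acts in most pain-sensing neurons, and the labels do not say how many copies of either allele an embryo had. Each of the 3 female libraries held 40 ganglia of 2 embryos, as did male A, whereas 60 ganglia of 3 embryos went into male B and 20 ganglia of 1 embryo into male C. Library totals ran from 15693013 to 24033601 counts. The sort genes were abundant: Scn10a averaged 119 ± 16.8 and Ret 27.8 ± 3.83 RPKM (counts scaled by gene length and library total; SD, n = 6).

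As background, endothelial cells line vessels and are recognised by junction proteins such as those of Pecam1, Cldn5 and Esam, by receptors for vascular growth factors (Kdr, Flt1, Tek, Tie1) and by transcription factors of the ETS and SOX families. Mural cells are drawn to growing vessels by platelet-derived growth factor through the receptor encoded by Pdgfrb. Macrophages depend on the receptor encoded by Csf1r and make complement component C1q, and in sensory ganglia they lie close to neuron cell bodies. No unsorted ganglion and no EGFP-negative fraction was analysed here, so levels describe RNA and not a share of cells. In such bulk libraries fewer cells of a type and less RNA per cell cannot be told apart.

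Promoter sequence from RefSeq (GRCm38.p6, 250 bases before to 50 after the start) was matched to 25 of the 35 genes. The 5 printed here belong to genes on which the results below turn: Tek and Tie1, which encode a pair of related endothelial receptors, Fcer1g and C1qb from the macrophage list, and Rgs5, the leading mural gene. Capitals mark AGGAAG, searched on both strands and so also read as CTTCCT. It holds the GGAA core that ETS factors bind, among them PU.1 of macrophages. Each sequence runs 5′ to 3′ on the gene's strand, at chr4:94739039-94739338 (plus strand), chr4:118489800-118490099 (minus), chr1:171234300-171234599 (minus), chr4:136886151-136886450 (minus) and chr1:169655251-169655550 (plus).
Tek: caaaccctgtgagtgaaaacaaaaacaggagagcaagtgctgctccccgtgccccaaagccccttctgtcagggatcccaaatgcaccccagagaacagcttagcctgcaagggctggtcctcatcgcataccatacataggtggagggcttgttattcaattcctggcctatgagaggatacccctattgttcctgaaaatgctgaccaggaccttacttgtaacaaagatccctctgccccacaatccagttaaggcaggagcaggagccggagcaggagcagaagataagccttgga
Tie1: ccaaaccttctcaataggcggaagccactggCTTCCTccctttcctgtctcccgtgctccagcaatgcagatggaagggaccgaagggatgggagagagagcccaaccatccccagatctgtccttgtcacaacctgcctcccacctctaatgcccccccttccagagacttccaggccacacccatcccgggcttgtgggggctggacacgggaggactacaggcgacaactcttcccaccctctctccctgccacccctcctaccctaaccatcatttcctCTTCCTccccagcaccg
Fcer1g: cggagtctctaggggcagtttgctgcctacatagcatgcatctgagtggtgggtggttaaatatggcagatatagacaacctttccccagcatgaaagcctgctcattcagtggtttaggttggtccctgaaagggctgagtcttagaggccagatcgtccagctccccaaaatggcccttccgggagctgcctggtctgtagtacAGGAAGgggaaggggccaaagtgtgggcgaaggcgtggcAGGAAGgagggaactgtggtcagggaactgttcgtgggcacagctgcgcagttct
C1qb: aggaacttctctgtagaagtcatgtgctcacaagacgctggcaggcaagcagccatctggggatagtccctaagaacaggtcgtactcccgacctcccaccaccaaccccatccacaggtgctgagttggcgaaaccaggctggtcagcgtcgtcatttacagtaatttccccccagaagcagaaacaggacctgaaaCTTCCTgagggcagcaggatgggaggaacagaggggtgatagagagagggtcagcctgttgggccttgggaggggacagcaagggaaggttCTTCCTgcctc
Rgs5: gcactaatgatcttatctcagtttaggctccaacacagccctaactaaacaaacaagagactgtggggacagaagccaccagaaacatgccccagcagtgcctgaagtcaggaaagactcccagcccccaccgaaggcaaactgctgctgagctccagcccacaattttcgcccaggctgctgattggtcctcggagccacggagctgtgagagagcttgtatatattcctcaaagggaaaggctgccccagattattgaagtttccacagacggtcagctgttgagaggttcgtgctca
The motif stood in 2 places each in the promoters of Tie1, Fcer1g and C1qb and in none of those of Tek and Rgs5. Over all members it was in 16 of 30 promoters (53.3%; some genes have several starts), against 35.4% of the 32851 promoters in the table. It was in 8 of 11 macrophage promoters, 7 of 13 endothelial promoters and 0 of 5 mural promoters. These counts describe letters and not binding.

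Most of the 35 genes were at low levels, and a few stood far above the rest of their class. Mean levels were under 1 CPM (counts scaled to the library total) for 21 genes and under 0.1 CPM for 6 of them, and 40.0% of the genes reached 1 CPM, against 32.2% of all genes listed. A mean of 1 RPKM or more was reached by 6 genes (17.1%), against 28.0% of all genes listed: Ets1, Rgs5, Fcer1g, Pdgfrb, P2ry12 and Egfl7. The median member had a mean of 0.184 RPKM, against 0.0486 RPKM for the median of all genes listed, many of which had no read at all. Reads were found in all 6 libraries for 24 of the 35 genes (68.6%), against 41.1% of all genes listed. Where a library had no read, the level could still be as high as 0.125 CPM (female B, the deepest) to 0.191 CPM (male C, the shallowest), so the order of genes below these levels cannot be read.

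**Figure D1:**
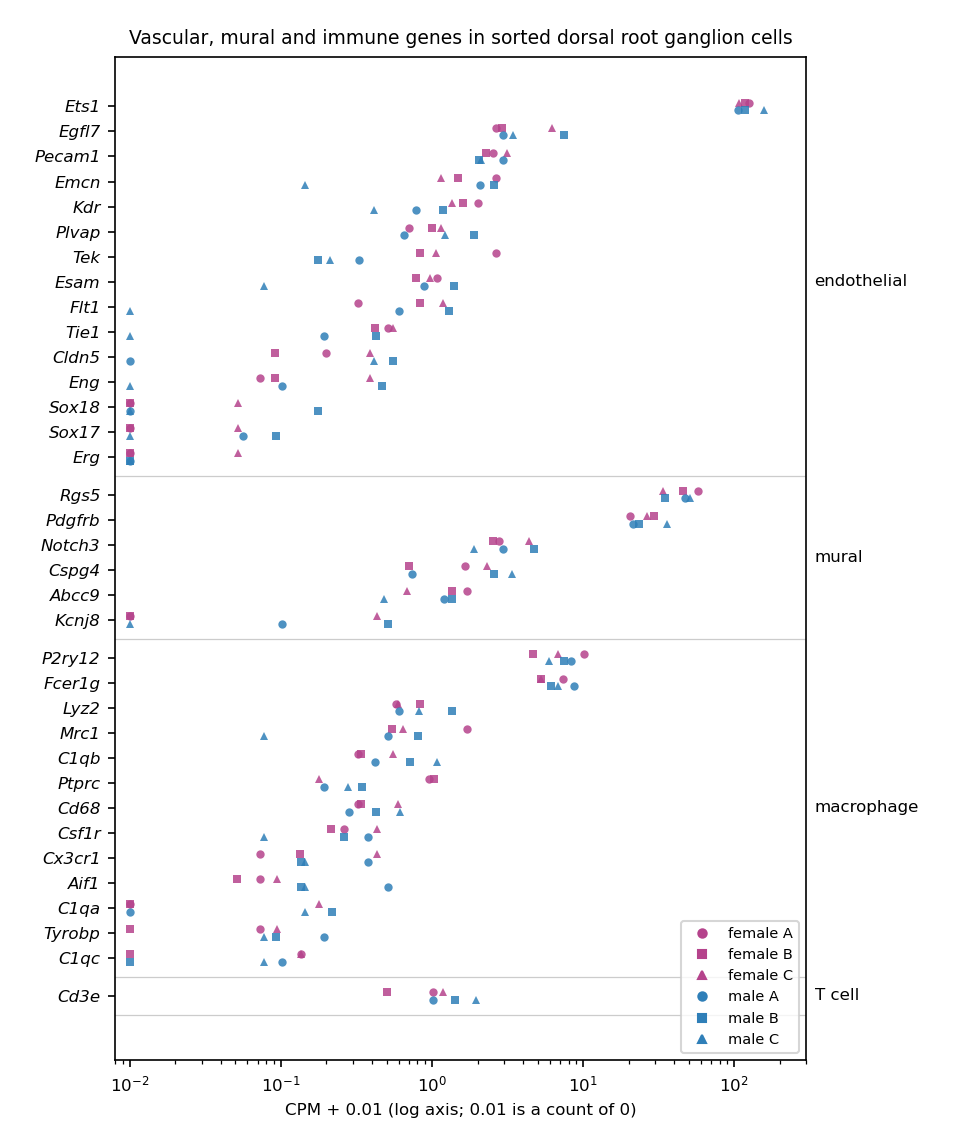
CPM of each of the 35 genes (rows, grouped by class and ordered by mean) in 3 female and 3 male libraries, on a log axis with 0.01 added. Ets1, Rgs5 and Pdgfrb lie above 20 CPM in every library, while Erg, Sox17 and Sox18 lie below 0.2 CPM.

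Among endothelial genes the transcription factor gene Ets1 made up nearly all of the summed level. Ets1 stood at 124, 118 and 108 CPM in female A, B and C and at 107, 118 and 156 CPM in male A, B and C. All libraries were above 100 CPM, the highest was male C, and the sexes overlapped. Ets1 thus averaged 14.4 ± 2.13 RPKM (SD, n = 6), higher than 91.3% of all genes listed. The other transcription factor genes of the list did not follow it. Erg, another ETS factor, had 1 read over the 6 libraries, in female C. Sox17 had 0, 0 and 1 reads in female and 1, 2 and 0 reads in male libraries, and Sox18 had 0, 0 and 1 reads in female and 0, 4 and 0 reads in male libraries. Fli1, an ETS gene that lies 93.4 kb from Ets1 on chromosome 9, averaged 0.233 ± 0.11 RPKM. What cells the reads of Ets1 came from was not tested.

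Endothelial surface and junction genes were low but present. Pecam1, which encodes the adhesion molecule CD31, stood at 2.52, 2.25 and 3.10 CPM in female and 2.92, 2.04 and 2.09 CPM in male libraries. It was the steadiest of the low endothelial genes, with 1.52-fold between its highest and lowest library. Emcn, which encodes the sialomucin endomucin, stood at 2.64, 1.47 and 1.13 CPM in female and 2.06, 2.54 and 0.135 CPM in male libraries, so male C lay far below the others. Esam, an adhesion molecule gene of tight junctions, followed the same order at the low end, with 1 read in male C against 17 to 33 reads elsewhere. Plvap, which encodes the diaphragm protein of fenestrated endothelium, averaged 1.09 ± 0.449 CPM and the secreted factor gene Egfl7 4.27 ± 2.06 CPM (SD, n = 6). Egfl7 was highest in male B (7.51 CPM) and female C (6.21 CPM) and between 2.64 and 3.43 CPM in the other libraries. Of its exon bases 11.2% are shared with exons of other genes, among them Agpat2. How reads on shared bases were counted is not known here, so its count could be too high or too low. Cldn5, the tight junction gene of barrier vessels, had 3, 2 and 9 reads in female and 0, 13 and 6 reads in male libraries. Eng, a co-receptor gene for transforming growth factor beta, had 1, 2 and 9 reads in female and 2, 11 and 0 reads in male libraries, and 11.3% of its exon bases are shared.

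The receptor genes for vascular growth factors were all below 3 CPM. Kdr, the main receptor gene for vascular endothelial growth factor (VEGF), averaged 1.22 ± 0.575 CPM, and Flt1, whose product binds VEGF and placental growth factor, 0.699 ± 0.498 CPM. The angiopoietin receptor gene Tek averaged 0.866 ± 0.941 CPM and its relative Tie1 0.343 ± 0.210 CPM (SD, n = 6). Flt1 and Tie1 had no read in male C, while Kdr had 6 and Tek 3 reads there. Further endothelial genes gave the same picture of single high genes among low ones. Of 20 such genes 4 reached 1 RPKM, led by the glucose transporter gene Slc2a1 at 18.2 ± 4.66 RPKM, the hyaluronan receptor gene Lyve1 at 4.03 ± 0.612 RPKM and the lipid transporter gene Mfsd2a at 2.56 ± 0.780 RPKM. Cdh5, which encodes the endothelial cadherin, was at 0.476 ± 0.139 RPKM, and the lowest was the blood and endothelial factor gene Tal1, with 1 read in all.

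Mural genes split in the same way. Rgs5, a regulator of G protein signalling used as a pericyte marker, stood at 57.2, 45.8 and 33.6 CPM in female and 46.9, 34.9 and 51.0 CPM in male libraries. Pdgfrb stood at 20.4, 29.6 and 26.6 CPM in female and 21.5, 23.4 and 35.8 CPM in male libraries. Both were well above 10 CPM in every library, and the sexes overlapped. Per length Rgs5 averaged 9.87 ± 2.01 and Pdgfrb 4.78 ± 1.06 RPKM, while the receptor gene Notch3 of vascular smooth muscle averaged 0.398 ± 0.137 RPKM and the NG2 proteoglycan gene Cspg4 0.233 ± 0.132 RPKM (SD, n = 6). Kcnj8 and Abcc9 encode the pore and the regulatory subunit of a potassium channel of pericytes and lie 16.5 kb apart on chromosome 6. Kcnj8 had 0, 0 and 10 reads in female and 2, 12 and 0 reads in male libraries, and Abcc9 27, 33 and 16 reads in female and 26, 32 and 7 reads in male libraries. The neighbours therefore did not share an order of libraries: Kcnj8 had most reads in male B and female C, and Abcc9 was lowest, as CPM, in male C and female C. Of 14 further mural genes 4 reached 1 RPKM, led by the adhesion molecule gene Mcam at 17.0 ± 2.33, the myosin light chain gene Myl9 at 9.31 ± 3.56 and the cytochrome oxidase subunit gene Cox4i2 at 4.52 ± 1.82 RPKM. The smooth muscle actin gene Acta2 was at 0.839 ± 0.502 RPKM, and Foxf2, a transcription factor gene of brain pericytes, had no read in any library.

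**Figure D2:**
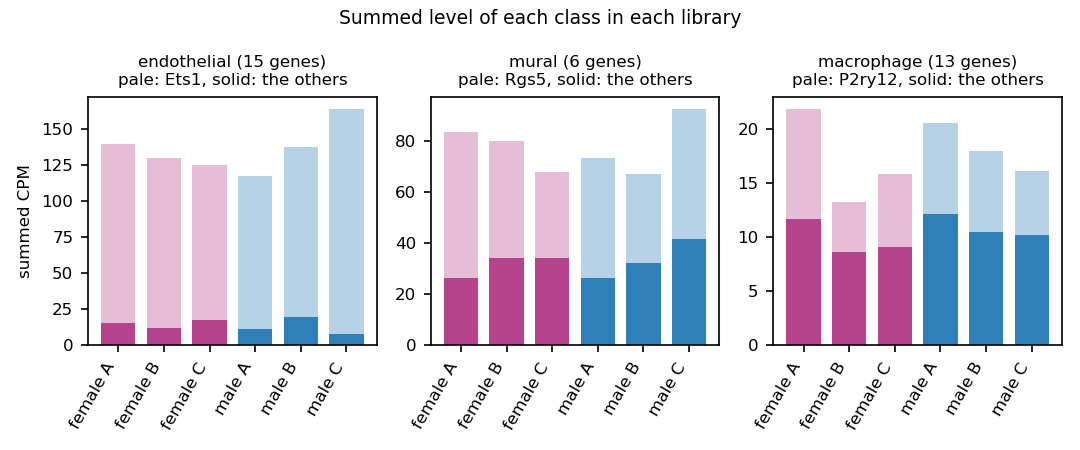
Summed CPM of the endothelial, mural and macrophage genes in each female and male library; the pale part of a bar is the highest gene of the class and the solid part the other genes. Without Ets1 the endothelial sum was between 7.94 CPM in male C and 19.7 CPM in male B.

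Macrophage genes were led by Fcer1g and P2ry12, while the genes that define macrophages were close to 0. Fcer1g, which encodes a signalling chain of Fc receptors, stood at 7.30, 5.23 and 5.24 CPM in female and 8.72, 6.13 and 6.79 CPM in male libraries. P2ry12, an ADP receptor gene of microglia, stood at 10.1, 4.62 and 6.84 CPM in female and 8.36, 7.51 and 5.92 CPM in male libraries. The sexes overlapped for both. P2ry12 lies within the span of Med12l on the opposite strand, which averaged 17.3 ± 2.01 CPM. Their exons share no bases, but it is not known here whether counting used strand. Tyrobp, which encodes the adaptor closest to the product of Fcer1g in role, had 1, 0 and 2 reads in female and 4, 2 and 1 reads in male libraries. Csf1r had 4, 5 and 10 reads in female and 8, 6 and 1 reads in male libraries, and 17.8% of its exon bases are shared with Hmgxb3. It lies 20.5 kb from Pdgfrb on chromosome 18, so neighbours in the genome had 34 and 3245 reads over the 6 libraries. The fractalkine receptor gene Cx3cr1 had 27 reads in all and the calcium-binding protein gene Aif1, which encodes IBA1, 20 reads, 11 of them in male A.

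The other macrophage members all had means under 1 CPM. Lyz2, the lysozyme gene, averaged 0.785 ± 0.292 CPM, the mannose receptor gene Mrc1 0.704 ± 0.544 CPM, the pan-leukocyte phosphatase gene Ptprc 0.487 ± 0.390 CPM and the lysosomal glycoprotein gene Cd68 0.421 ± 0.144 CPM (SD, n = 6). Mrc1 was highest in female A with 27 reads and had 1 read in male C. Ptprc had 15 and 25 reads in female A and B and 4 to 8 reads in the other libraries. The 3 chains of C1q are encoded side by side on chromosome 4, and their products join into 1 protein, yet C1qb had 68 reads over the 6 libraries, C1qa 11 and C1qc 8. C1qb had 5, 8 and 13 reads in female and 9, 17 and 16 reads in male libraries, whereas C1qa had no read in female A, female B and male A and C1qc none in female B and male B. C1qb had the most reads of the 3 in every library, while C1qa and C1qc cannot be ranked at these counts. The 21 further macrophage genes, not all of which are described here, summed to 91.9 ± 7.85 CPM (SD, n = 6). Few genes held most of this sum, since 18 of the 21 had means under 1 CPM. The median of the list was 0.170 CPM, and 1 gene reached 1 RPKM. Of the 21 genes Laptm5, a lysosomal membrane protein gene, averaged 0.710 ± 0.242 and the clotting factor gene F13a1 0.673 ± 0.364 RPKM. Spi1, which encodes PU.1, had 1 read in all. The T cell gene Cd3e had 16, 12 and 28 reads in female and 22, 34 and 29 reads in male libraries. Its neighbours on chromosome 9, Cd3d and Cd3g, which encode partner chains of the same receptor complex, had 0 and 3 reads in all. Among 10 lymphocyte genes only the kinase gene Lck reached 1 RPKM, at 2.69 ± 0.322 RPKM, followed by the B cell receptor gene Cd79a at 0.257 ± 0.109 and the cytotoxic granule gene Nkg7 at 0.0499 ± 0.0774 RPKM. Cd3d and Cd8a had no read in any library, as was the case for the neutrophil elastase gene Elane in a list of 11 granulocyte and mast cell genes led by S100a8 (0.613 ± 0.341 RPKM), Cpa3 (0.587 ± 0.193 RPKM) and Tpsb2 (0.295 ± 0.538 RPKM).

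The summed level of each class was compared between libraries. Endothelial genes summed to 140, 130 and 126 CPM in female and 118, 138 and 164 CPM in male libraries. Mural genes summed to 83.7, 79.95 and 68.0 CPM in female and 73.4, 67.4 and 92.5 CPM in male libraries, and macrophage genes to 21.8, 13.3 and 15.9 CPM in female and 20.6, 18.02 and 16.1 CPM in male libraries. Within each class the libraries differed by less than 2-fold and the sexes overlapped. The gene of highest CPM held 89.7% of the endothelial sum (Ets1), 58.0% of the mural sum (Rgs5) and 41.0% of the macrophage sum (P2ry12). As a share of the CPM of Scn10a in the same library they were 18.1 ± 2.58%, 10.4 ± 2.10% and 2.39 ± 0.755% (SD, n = 6). With RPKM summed in place of CPM the shares were 15.2%, 13.4% and 11.6%, so the macrophage share in particular depends on the scale. On the CPM scale without Ets1, Rgs5 and P2ry12 they were 1.86 ± 0.550%, 4.28 ± 0.377% and 1.404 ± 0.377%.

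Among genes with means under 1 CPM the libraries differed more in the summed level of the endothelial than of the macrophage class. The 9 endothelial genes with means under 1 CPM summed to 4.78, 2.99 and 4.61 CPM in female and 2.10, 4.505 and 0.673 CPM in male libraries, a 7.11-fold range that was 2.28-fold without male C, an alternative added after seeing the data. The 11 macrophage genes with means under 1 CPM summed to 4.41, 3.39 and 3.82 CPM in female and 3.47, 4.38 and 3.43 CPM in male libraries, a 1.30-fold range. The gap between the classes depends on this cut. With only the highest gene left out, the range was 2.48-fold for endothelial genes (without Ets1) and 1.41-fold for macrophage genes (without P2ry12). Some genes of both classes differed more than these sums, such as Esam by 20.5-fold among endothelial genes. Among macrophage genes Mrc1 differed by 25.3-fold, with female A highest, and Aif1 by 12.3-fold, with male A highest. Each of these folds rests on 1 read in the lowest library, male C for Esam and Mrc1 and female B for Aif1, so its size is uncertain. Male C, the single-embryo library, was the lowest for 6 of the 15 endothelial genes and the highest for 1, Ets1. Male B was the highest for 8 endothelial genes. Members with at least 1 read numbered 30, 28 and 35 in female and 31, 33 and 28 in male libraries. Over all genes listed, those with reads numbered 21028, 21332 and 21755 in female and 20864, 21165 and 19526 in male libraries. Female C thus had the most in both counts, and male C the fewest over all genes. Fibroblast genes moved with male B: their sum over 10 genes was 845 CPM there and between 519 and 692 CPM in the other libraries. The list of granulocyte and mast cell genes also had its highest sum there, 3.92 CPM against 0.673 to 2.06 CPM elsewhere. Within that mixed list the mast cell gene Tpsb2 had 35 reads in male B against 0 to 9 elsewhere. Haemoglobin and other erythroid genes did not follow the same order, at 1023 CPM in male A and between 34.7 and 185 CPM in the other libraries. Their part in these differences was not tested, nor was that of the number of pooled embryos.

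**Figure D3:**
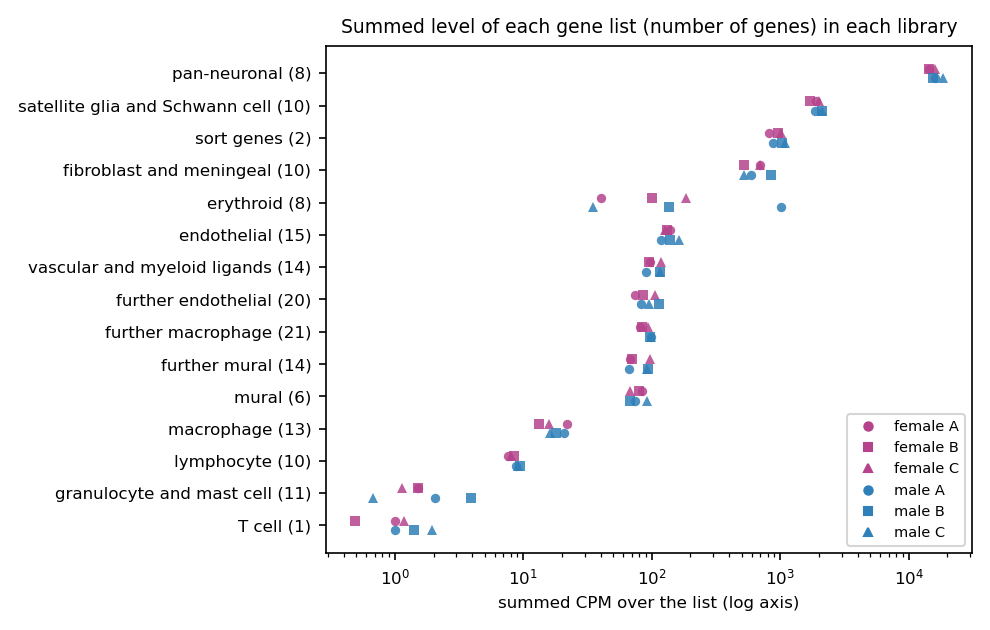
Summed CPM of each gene list in 3 female and 3 male libraries on a log axis, with the number of genes in brackets. The pan-neuronal genes sum to 14273 CPM or more in every library and the macrophage genes to 13.3 to 21.8 CPM, and the erythroid sum of male A stands apart from the other libraries.

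Genes of other cells of the ganglion were far more abundant than the vascular and immune genes. Satellite glia and Schwann cell genes had a median level of 28.5 RPKM over 10 genes, led by Pmp22 at 346 ± 43.8, Fabp7 at 310 ± 56.0 and Apoe at 175 ± 72.1 RPKM, with Foxd3 lowest at 0.494 ± 0.224 RPKM. Fibroblast and meningeal genes had a median of 5.27 RPKM, led by Dcn at 133 ± 13.7, Postn at 11.4 ± 3.57 and Col1a1 at 10.5 ± 6.71 RPKM, with Dpt lowest at 0.0548 ± 0.0534 RPKM. The medians were 0.184 RPKM for the endothelial, 0.316 RPKM for the mural and 0.118 RPKM for the macrophage class. Pan-neuronal genes had a median of 555 RPKM, led by Stmn2, Tubb3 and Gap43 and with Snap25 lowest at 94.6 ± 14.2 RPKM. Erythroid genes were led by Hbb-bs, Hbb-bt and Hba-a1, all highest in male A, and Slc4a1, which encodes the red cell anion exchanger, was lowest at 0.0251 ± 0.0297 RPKM. Lists hold different genes, so these medians describe levels and not numbers of cells.

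The ligands of the receptors among the 35 genes were mostly higher per length than the receptors. Pgf, which encodes placental growth factor, averaged 7.24 ± 0.730, Vegfb 7.37 ± 2.75 and Vegfa 1.38 ± 0.226 RPKM, beside 0.0603 ± 0.0430 RPKM for Flt1 and 0.167 ± 0.0790 RPKM for Kdr. Vegfc, a lymphatic growth factor gene, was as low as the receptors at 0.162 ± 0.117 RPKM. The angiopoietin genes Angpt1 and Angpt2 averaged 0.893 ± 0.435 and 1.08 ± 0.385 RPKM, beside 0.184 ± 0.200 RPKM for Tek. For the myeloid receptor gene Csf1r, at 0.0532 ± 0.0254 RPKM, the ligand genes Il34 and Csf1 stood at 1.95 ± 0.315 and 1.38 ± 0.483 RPKM. Jag1, a Notch ligand gene, averaged 7.41 ± 1.68 RPKM beside 0.398 ± 0.137 RPKM for Notch3, while the endothelial Notch ligand gene Dll4 was at 0.0519 ± 0.0458 RPKM. Pdgfb at 3.67 ± 0.595 RPKM was the exception among main ligands, below its receptor gene Pdgfrb, and Pdgfd was at 0.690 ± 0.121 RPKM. Cx3cl1, which encodes fractalkine, averaged 0.168 ± 0.0988 RPKM, beside 0.0548 ± 0.0396 RPKM for Cx3cr1, and Tgfb1 0.0163 ± 0.0326 RPKM (SD, n = 6 throughout).

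**Figure D4:**
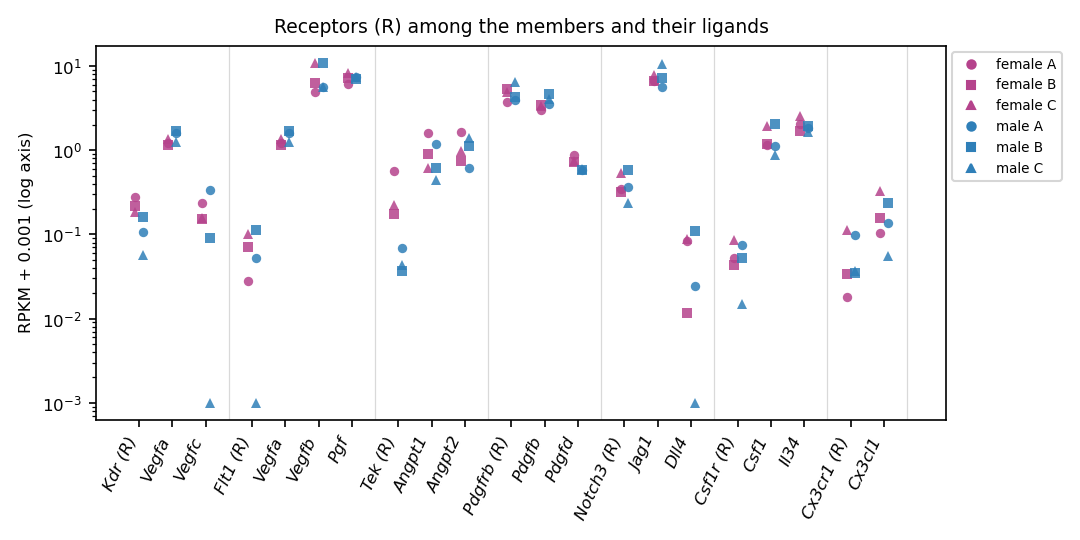
RPKM, with 0.001 added, of receptor genes among the 35 (marked R) and of their ligand genes in 3 female and 3 male libraries on a log axis. Pgf, Vegfb and Jag1 lie above 4 RPKM in every library, while Flt1, Csf1r and Cx3cr1 lie below 0.2 RPKM.

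Between the sexes no member passed the test, although the receptor gene Tek had a level in each female library above that in each male library. Of the 35 genes 20 passed the expression filter, and 0 were called by edgeR's quasi-likelihood test, where 5 of 15026 genes (0.0333%) were called. DESeq2 and limma-voom also called 0 members. At an unadjusted p under 0.05 in edgeR there were 2 of the 20 tested members, Tek and Kdr, and 166 of all 15026 tested genes. The lack of a call does not show that levels were equal between the sexes. Of the 20 tested members 10 had a positive and 10 a negative log2 fold change, with a median of -0.0047, against -0.0050 over all genes tested. None of the genes in the other lists was called either.

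Tek had 42, 20 and 25 reads in female and 7, 4 and 3 reads in male libraries. As CPM these were 2.64, 0.818 and 1.05 in female and 0.320, 0.167 and 0.202 in male libraries, so the sexes did not overlap and female A was the highest. The log2 fold change, female over male, was 2.65 (standard error 0.61, edgeR adjusted p = 0.9997). Ordered by this signed value Tek was number 2 of all tested genes from the female side, and by size in either direction number 7. Without female A it was 1.99, and with no filter on low counts its edgeR adjusted p was 0.0635, the smallest over the alternatives, which reached 1. With a filter of 1 CPM in 3 libraries Tek was not tested, since only 2 female libraries reached that level. Kdr had 32, 39 and 32 reads in female and 17, 28 and 6 reads in male libraries. Its CPM, 2.01, 1.59 and 1.34 in female and 0.776, 1.17 and 0.404 in male libraries, did not overlap either (log2 fold change 1.03, standard error 0.45, edgeR adjusted p = 0.9997). These 2 were the tested members with all female libraries above all male libraries, while 3.17% of all tested genes showed that order. The opposite order was seen in 0 tested members and in 2.53% of all tested genes. The other tested endothelial members did not share the order: Pecam1 and Emcn had log2 fold changes of 0.16 and 0.09, and Ets1 of -0.12 with a standard error of 0.18. Of the further endothelial genes, Ptprb, which encodes an endothelial phosphatase, had the female libraries above the male ones (log2 fold change 0.58, standard error 0.32) and the nitric oxide synthase gene Nos3 the male libraries above the female ones (-0.31, standard error 0.31), and neither was called. Of the exon bases of Nos3 32.3% are shared with genes on the opposite strand, among them Atg9b, and how reads on them were counted is not known here. Next in p among the members was C1qb, at -0.83 with a standard error of 0.54.

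**Figure D5:**
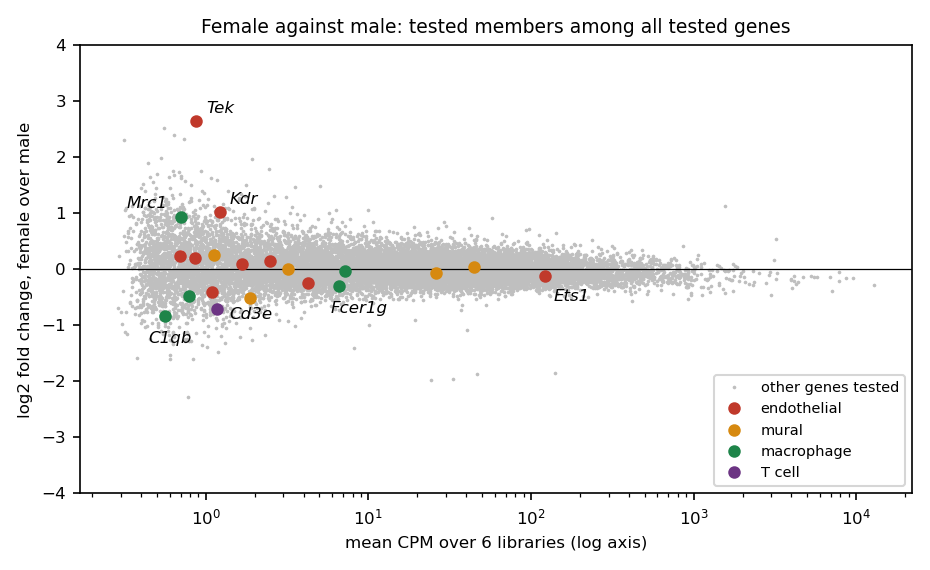
Log2 fold change, female over male, against mean CPM (log axis) for the 20 tested members, coloured by class, and all other tested genes in grey; 6 genes beyond 4 log2 units, none of them members, lie outside the axis. Tek at 2.65 stands at the upper edge and Ets1 at -0.12 near 0.

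The tested members had a higher median spread between libraries than all tested genes, in a comparison not matched for level. Their median biological coefficient of variation, from the edgeR fit, was 0.355, against 0.238 over all tested genes. It was 0.390 for endothelial, 0.338 for mural and 0.337 for macrophage members. The abundant Ets1 (0.178), Rgs5 (0.218) and Pdgfrb (0.230) were below the median of all genes, while Flt1 (0.659), Emcn (0.584) and Mrc1 (0.523) were the most variable. These last genes had low counts, with 0, 2 and 1 reads in male C. Whether members varied more than other genes of their level was not tested.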

How the data were processed

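The authors deposited 6 tables, 1 per library, each giving for 41388 genes a count of reads with its CPM and RPKM. The counts came from featureCounts 1.4.5 of Subread and the build was GRCm38.p2, per the submitters' processing notes. Which aligner, annotation and strand setting they used, and how multi-mapping reads were handled, is not given in the sources here. Libraries were amplified from 10 ng of RNA by 12 PCR cycles, per the labels' protocols. The CPM deposited by the authors equals the count over the library total, and the RPKM deposited by the authors equals that CPM divided by gene length in kilobases, as a check over all genes showed. Both were recomputed from the counts with TMM factors (edgeR 4.0.16, R 4.3.3). Symbols came from a GENCODE M21 name table, which named 97.3% of the identifiers.

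Female and male libraries were compared by edgeR's quasi-likelihood test on all genes passing filterByExpr, with two-sided p-values and Benjamini-Hochberg adjustment over 15026 genes at 0.05. The standard error is the log2 fold change over the square root of F. DESeq2 1.42.0 and limma-voom (limma 3.58.1) were among 15 alternatives to this fit. The step was tested on simulated data. The labels do not say which libraries share a litter or a day. The p-values set the sex difference against the spread between these libraries, which hold 1 to 3 embryos each, and not between single animals.

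The 35 genes and the other lists were chosen with earlier results of these data known. By the rule for named genes the text gives all 35 genes, the sort genes, the ligands, and in each other list its 3 members of highest mean RPKM, its lowest and any member called between sexes. Some genes that this rule names are not reported here. Other genes, and the promoters printed, were chosen after their values were seen. Limits for a count of 0 are 3 counts of the library total (95% level). They cover counting error alone, because PCR copies cannot be told from separate molecules here.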

Additional observations from a re-analysis of the deposited data

Results flagged for a closer look

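The level of each of the 35 genes and the 3 class sums were screened over the 6 libraries for 1 library far from the others by Dixon's ratio, and 6 of these 38 values passed its 95% critical value. Chance alone flags about 5% of groups, a rate that does not hold for genes at 0 in most libraries: a gene read in 1 library alone, as Erg was, always passes. Tek was highest in female A at 2.64 CPM, and Ets1 was highest in male C at 156 CPM. Erg reached 0.0419 CPM in female C, which was its only read, and Sox18 reached 0.167 CPM in male B with 4 of its 5 reads. Aif1 was highest in male A at 0.502 CPM, and Lyz2 in male B at 1.33 CPM. None of the class sums passed.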

How the results depend on the processing

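The call of 0 members between sexes held under each of the 15 alternatives, and 5 genes were called over all without each library in turn (1 higher in female and 4 in male), when 21 to 24 members were tested. With no filter 12 genes were called, 3 higher in female and 9 in male, and 35 members were tested; DESeq2 called 2 genes higher in female and gave an adjusted p to 35 members. The labels do not say whether shared letters pair the samples. Same-lettered libraries had deviations from their group means correlated at 0.284 (A), -0.294 (B) and -0.0773 (C). Differently lettered ones ran from -0.484 (female C with male A) to 0.549 (female C with male B). These values cannot decide on pairing, because deviations from a mean of so few libraries are bound to each other. With the letter as a replicate block 5 genes and 0 members were called. Without its highest member the class sum was 14.0 CPM and 1.86% of Scn10a (endothelial), 32.6 CPM and 4.28% (mural) and 10.4 CPM and 1.404% (macrophage). Summed as RPKM in place of CPM the classes were 15.2%, 13.4% and 11.6% of Scn10a. RLE factors or library totals moved no class sum or gene level beyond its SD. Depth limits the low genes: 21 of the 35 had means under 1 CPM.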
